A study of Mus musculus with 4 samples.

Results

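The low density lipoprotein (LDL) receptor family was examined through 8 of its genes, Lrp1, Lrp1b, Lrp2, Lrp4, Lrp5, Lrp6, Lrp8 and Vldlr, in a list of DNA regions where captured, methylated DNA was lower after tamoxifen than after oil. Of 39231 listed regions, 47 overlapped these genes, counting each gene's RefSeq body and 2000 bp on both sides in mm10. The genes were chosen by gene family and by this same list, with the dense Lrp1 window known, so region counts, folds and densities below describe the family and were not tested. The samples were satellite cells, the stem cells of skeletal muscle, taken from hindlimb muscles of 9-week-old mice and cultured for 3 days on Matrigel. Tamoxifen mice received 150 µl of 20 mg/ml tamoxifen in corn oil into the abdomen on 5 days in a row, which sets off Cre recombination and deletes Uhrf1 in satellite cells, and the controls are labelled oil. The genotype of the oil group, the Cre driver, the time from injection to harvest, the strain and the number of mice per library are not given in the sources used here. Each treatment had 1 library of methylated and 1 of non-methylated DNA, 4 libraries in 4 groups, with no replicates. The 1 list analysed names its inputs only as oil and tamoxifen. They are read here as the methylated DNA, and all that follows rests on that reading.

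These receptors share an outer part built of cysteine-rich ligand-binding repeats and propeller domains, and a short inner tail that binds adaptor proteins. Lrp1, Lrp1b and Lrp2 are giant endocytic receptors that take up many ligands, among them apolipoprotein E and protease-inhibitor complexes. Lrp5 and Lrp6 are coreceptors that pass Wnt signals on together with Frizzled proteins, and in skeletal muscle Lrp4 is the receptor for agrin that activates the kinase Musk at the neuromuscular junction. Lrp8 and Vldlr bind reelin and signal through the adaptor Dab1. Uhrf1 brings the maintenance methyltransferase to freshly copied DNA, so its loss is known to lower DNA methylation as cells divide.

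The oil library held 19534328 tags after removal of duplicates and the tamoxifen library 25614791, and the share of duplicate tags differed (0.45 in oil, 0.30 in tamoxifen). With 1 library on each side, deletion of Uhrf1, tamoxifen itself, the animals, the cultures and the capture cannot be told apart. The list cannot show whether Uhrf1 was deleted. A list of regions holds no expression values, so the labelled cell type was not checked by its markers. Of 26 marker genes of satellite, fibro-adipogenic, endothelial, immune and glial cells, 12 carried a region (46.2%), beside 45.2% of all 21887 protein-coding genes. Satellite cell markers did so in 2 of 8 (Calcr and Itga7), fibro-adipogenic in 3 of 5, endothelial in 3 of 5, immune in 2 of 4 and glial in 2 of 4, which gives no share of these cells in either library.

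RefSeq promoter entries (GRCm38.p6, the assembly of mm10) matched 4 of the 8 genes, Lrp1, Lrp2, Lrp8 and Vldlr, with 7 windows of 300 bp. None of the 7 overlapped a listed region. Over all 32851 promoter windows 1.28% did, so none in 7 says little. The 250 bases before the start site are shown for the 3 members whose annotated start lies at the outer end of the gene, with every CpG, the dinucleotide that carries the methyl mark, in capitals. They are followed by the 250 bases before an inner start site of Sorl1, a sorting receptor related to the family, which is the only promoter window among 62 of the wider pathway that a listed region overlapped. The strand is minus for all but Vldlr, and each is written 5′ to 3′.
Lrp1, chr10:127621149-127621398: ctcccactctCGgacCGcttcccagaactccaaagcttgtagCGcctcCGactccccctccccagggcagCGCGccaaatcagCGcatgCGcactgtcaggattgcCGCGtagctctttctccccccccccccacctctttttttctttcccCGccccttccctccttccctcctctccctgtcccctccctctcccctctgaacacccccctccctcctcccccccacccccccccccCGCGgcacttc
Lrp2, chr2:69586030-69586279: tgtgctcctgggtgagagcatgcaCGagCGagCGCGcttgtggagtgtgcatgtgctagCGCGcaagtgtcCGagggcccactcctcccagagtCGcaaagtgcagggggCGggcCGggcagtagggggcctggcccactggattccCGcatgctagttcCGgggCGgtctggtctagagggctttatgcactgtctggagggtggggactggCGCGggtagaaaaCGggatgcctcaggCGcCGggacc
Vldlr, chr19:27216234-27216483: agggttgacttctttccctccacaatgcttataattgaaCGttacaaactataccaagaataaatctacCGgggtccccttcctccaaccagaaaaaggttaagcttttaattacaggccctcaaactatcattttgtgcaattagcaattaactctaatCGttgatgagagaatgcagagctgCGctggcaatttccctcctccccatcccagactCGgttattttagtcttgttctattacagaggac
Sorl1, chr9:42077214-42077463: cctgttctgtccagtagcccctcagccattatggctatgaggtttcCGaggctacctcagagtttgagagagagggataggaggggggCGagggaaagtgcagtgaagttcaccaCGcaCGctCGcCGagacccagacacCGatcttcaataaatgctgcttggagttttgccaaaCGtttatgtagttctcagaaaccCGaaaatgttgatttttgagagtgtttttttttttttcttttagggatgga
The printed stretches hold 13 CpGs in Lrp1, 18 in Lrp2, 5 in Vldlr and 9 in Sorl1. In whole 300 bp windows the member counts ran from 4 CpGs, at an inner start of Lrp8, to 23 at the inner start of Vldlr, with a median of 16 against 7 over all windows (quartiles 3 and 20). The Lrp1 window, with 16 CpGs, stood at the 67.0th percentile of all windows. At Sorl1 the region from 42077149 to 42077415 covered 202 of the 250 printed bases, and 45 oil tags stood against 15 tamoxifen tags (3.70-fold, with the fold defined below). A window without a region may be unmethylated, methylated alike in both libraries, or too thinly covered, which the list does not tell apart.

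All 8 genes carried at least 1 region, where 45.2% of 21887 protein-coding genes did. That count was part of the choice of genes and supports nothing. Lrp1 held 18 of the 47, Lrp1b and Lrp4 8 each, Lrp2 and Lrp8 4 each, Lrp5 3, and Lrp6 and Vldlr 1 each. All 47 lay over gene bodies and none lay only in the added 2000 bp. The nearest regions left out were 3.10 kb beyond the upper end of Lrp1 (63 oil tags, 4.58-fold) and 3.43 kb beyond the lower end of Lrp6 (81 oil tags, 4.09-fold). No member lay close inside the limit. The members nearest to a gene end had their summits inside the body, 771 bp from the lower end of Lrp1 (33 oil tags, 4.32-fold) and 716 bp from that of Lrp5 (74 oil tags, 6.87-fold).

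Here a fold is the authors' oil over tamoxifen value at a region's summit, after 1 was added to both and tamoxifen was scaled to the oil library, and tags are unscaled counts over that summit. Over the 47 regions, oil tags ran from 16 to 145 with a median of 41 (quartiles 31 and 54.5), against a median of 51 over all listed regions. The median fold was 5.16 (quartiles 3.94 and 6.44), and 4.61 (3.67 and 5.87) over the whole list. A fold of 4 or more was reached by 32 of 47 family regions (68.1%), beside 66.1% of the list, and one of 10 or more by 3 (6.38%), beside 2.03% of the list. The family's regions thus had somewhat fewer tags than the list as a whole, and folds of much the same size. The median tamoxifen tag count was 9, beside 14 over the whole list. Scaled tamoxifen signal was 17.8% of oil signal at the median region, beside 20.1% over the list. Every region was listed because oil exceeded tamoxifen, so these shares do not measure the methylation left in a gene.

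**Figure D1:**
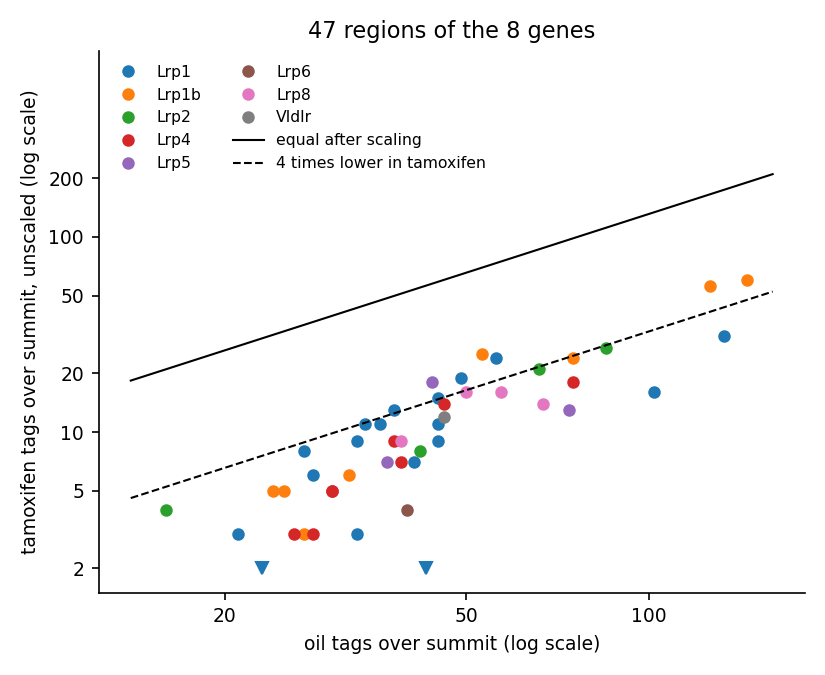
Oil tags (horizontal axis) and unscaled tamoxifen tags (vertical axis) over the summits of the 47 family regions, both on log scales, 1 point per region and 1 colour per gene, with triangles for the 2 regions where tamoxifen had 2 or fewer tags. The solid line marks equal signal after scaling and the dashed line a ratio of tags of 4. All points lie below the solid line, as the list requires, and the Lrp1b regions with 126 and 145 oil tags lie above the dashed one.

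Lrp1, the receptor for alpha-2-macroglobulin and apolipoprotein E (gene 16971, chr10:127538157-127621148, minus strand), was the densest of the 8, with 20.7 regions per 100 kb of gene and flanks. Lrp4 followed with 13.2 and Lrp8 with 5.09, while Lrp1b, the longest gene at 2058 kb, had 0.388. Protein-coding genes of 50 kb or longer, 4945 in number, had a median of 1.60 per 100 kb and a 95th percentile of 7.89, and 5 of them were denser than Lrp1. Of 2674 genes with a length within 1.5 times that of Lrp1, 3 had 18 or more regions, Lrp1 among them. At Lrp4, 67 of 3372 genes of like length, itself included, had its 8 regions or more. Lrp5, Lrp2 and Vldlr had densities of 2.84, 2.41 and 2.40 and Lrp6 0.804, with 40.4%, 38.7%, 59.6% and 80.3% of genes of like length having as many regions or more. For Lrp8 the share was 21.9%. For Lrp1b it was 21.1% of only 19 genes, which had a median of 4 regions against its 8. Lrp1b was thus sparse per 100 kb but did not have few regions for its length. Per 100 kb the family holds both very dense and sparse genes, and only Lrp1 and Lrp4 lay above the 95th percentile of density.

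**Figure D2:**
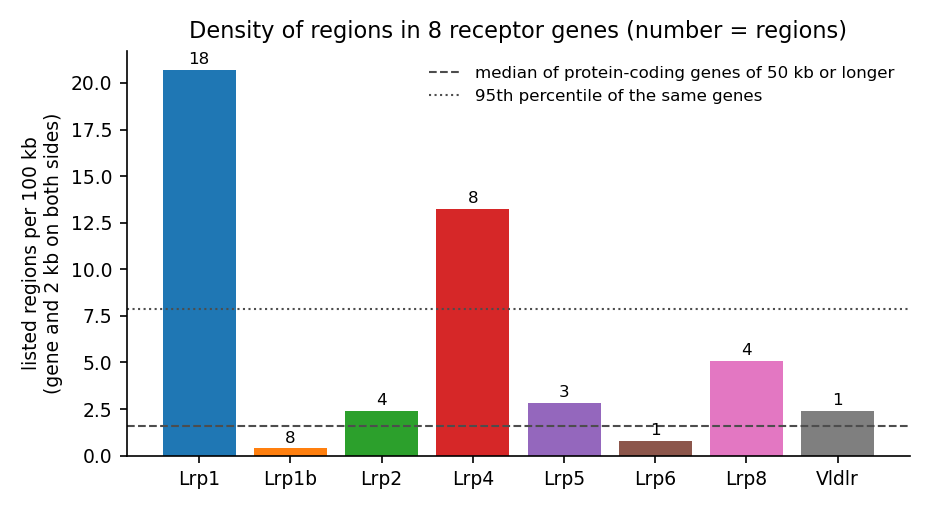
Listed regions per 100 kb (vertical axis) for each of the 8 genes with 2000 bp on both sides, with the number of regions above each bar. Lines give the median (1.60) and the 95th percentile (7.89) of protein-coding genes of 50 kb or longer, and Lrp1 at 20.7 and Lrp4 at 13.2 stand above both.

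The regions of Lrp1 lay in the part of the gene farthest from its start site. The first of them was 28.2 kb downstream of the start (127592831 to 127593127), and none lay in the first 25 kb. Splitting the gene body by length into 3 equal stretches of 27.7 kb, the stretch at the start held 0 regions, the middle one 6 and the last one 12. Within the last stretch, 8 regions fell within 9256 bp (127548289 to 127557544), and 5 of those within 3442 bp at its lower end. Joining regions less than 1000 bp apart left 13 of the 18. The gene table gives no exons, so the regions were not assigned to exons, introns or untranslated parts. Together they covered 5088 bp, or 5.85% of the gene and its flanks.

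In the stretch that ends at the gene's far end, the region at 127538672 to 127538961, the only one of Lrp1 within 2000 bp of a gene end, had 33 oil and 9 tamoxifen tags (4.32-fold). Next came 127543111 to 127543367 with 45 against 11 tags (4.90-fold) and 127544478 to 127544696 with 45 against 15 (3.70-fold). These 3 lay around the median fold of the list.
The tight group began with 127548289 to 127548711, where 38 oil tags stood against 13 tamoxifen tags (3.57-fold). The region beside it, 127549165 to 127549583, had 102 tags in oil against 16, or 7.80-fold (exact 95% limits of the scaled ratio of tags 4.91 to 15.2). Then followed 127549904 to 127550201 with 36 against 11 tags (3.94-fold), 127550506 to 127550754 with 33 against 3 (10.3-fold, limits 4.52 to 73.5) and 127551519 to 127551730 with 21 against 3 (6.69-fold). Close neighbours thus ranged from under 4-fold to over 10-fold, but the limits of the low and high ones overlap.
The group went on with 127554092 to 127554507 (41 against 7 tags, 6.63-fold), 127555705 to 127555947 (45 against 9, 5.85-fold) and 127557295 to 127557544 (28 against 6, 5.20-fold). The strongest region of the whole family followed at 127560036 to 127560324, where 43 oil tags stood against 2 or fewer in tamoxifen. Its fold of 14.2, above 99.8% of all listed regions, was set by the caller's genome-wide background and is a lower bound. The lower limit of its ratio, taking 2 tamoxifen tags, was 7.34.
Nearer the start, 4 of 6 regions were under 4-fold. The region at 127566504 to 127566768 had 49 against 19 tags (3.23-fold) and that at 127572953 to 127573166 34 against 11 (3.73-fold). The weakest of the 18, 127573327 to 127573568, had 56 against 24 tags (2.95-fold, limits 1.87 to 5.16), and 127578453 to 127578661 had 27 against 8 (3.94-fold). The best covered one, 127570592 to 127570887, had 133 against 31 tags and a fold of 5.44 (limits 3.78 to 8.61). The region nearest the start, 127592831 to 127593127, had 23 tags in oil and 2 or fewer in tamoxifen (7.74-fold, again a lower bound). The median fold was 5.53 in the stretch at the far end and 3.84 in the middle one, over 12 and 6 regions, and this difference was not tested.

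**Figure D3:**
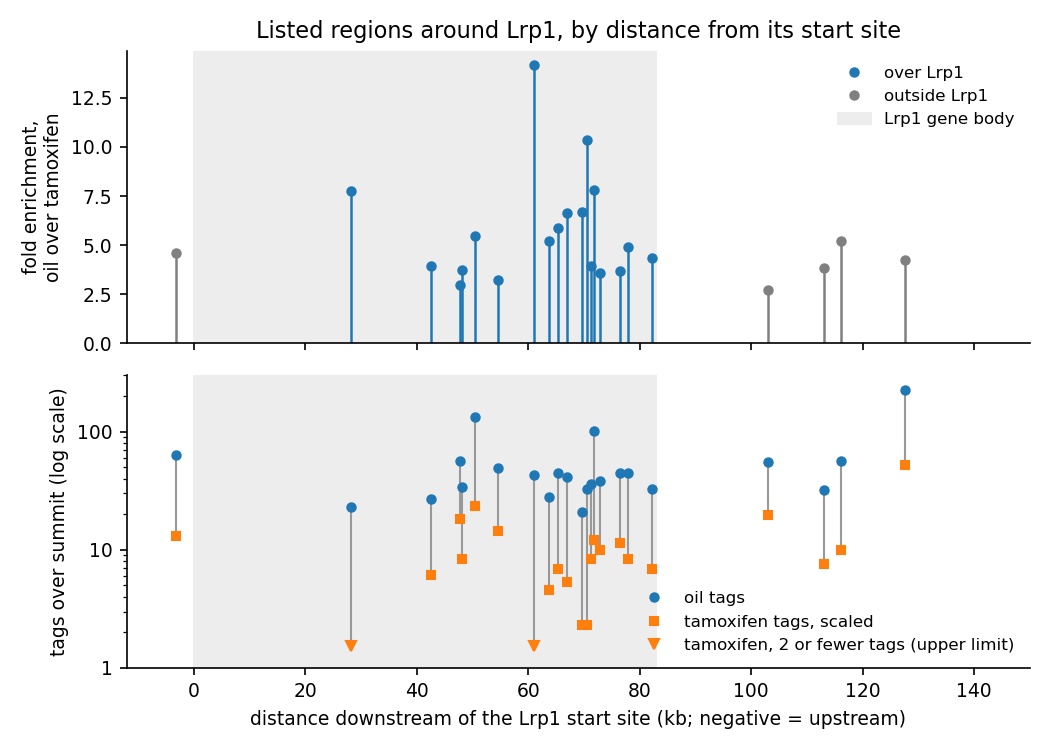
Listed regions from 52 kb before to 52 kb past Lrp1 by distance from its start site in kb (horizontal axis), with the fold enrichment above and, below, oil tags and scaled tamoxifen tags on a log scale joined by a line. The gene body is shaded and triangles are upper limits. The 18 regions over the gene begin 28.2 kb from the start and crowd between about 60 and 80 kb, and 5 regions lie outside the gene.

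Regions were sparser around the gene. Within 52 kb on both sides of Lrp1 lay 5 more regions, 1 upstream and 4 downstream. Past the far end of the gene, Nxph4, a neurexophilin gene, carried none, Shmt2, which encodes the mitochondrial serine hydroxymethyltransferase, 1 (2.69-fold), and Stac3, which is needed for excitation-contraction coupling, 2 (up to 5.22-fold). Ndufa4l2 counted 2, those of Stac3 and Shmt2 within 2000 bp of its ends, the stronger 3.83-fold. R3hdm2, which runs into this window from outside, had 6 (up to 7.42-fold). Before the start, Stat6 and Nab2 had none. The 100 kb stretch from 127500001 to 127600000 of chromosome 10 held 21 regions by midpoint. Among 14855 such stretches with any region, 5 had 21 or more, this one included, and the median was 2.

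Lrp1b, a close relative of Lrp1 that is often deleted in tumours (gene 94217, chr2:40595290-42653598), had 8 regions far apart, with a median gap of 90609 bp. Its 2 nearest ones, at 41214775 to 41214991 (27 against 3 tags, 8.52-fold, limits 3.63 to 60.8) and 41217096 to 41217296 (32 against 6, 5.92-fold), were 2104 bp apart. They stood beside better covered regions of lower fold. These were 41045057 to 41045309 with 126 against 56 tags (2.91-fold, limits 2.14 to 4.12) and 42034038 to 42034367 with 145 against 60 (3.12-fold, limits 2.33 to 4.36), the most oil tags in the family. The other 4, starting at 40787721, 41988692, 42124977 and 42202211, were 5.19-fold (24 against 5 tags), 3.94-fold (75 against 24), 5.4-fold (25 against 5) and 2.69-fold (53 against 25), the last being the lowest fold of all 47. In Lrp1b, then, the summits with over 50 oil tags all had folds under 4 and those with fewer all had folds above 5. A region with fewer oil tags needs a higher fold to enter the list. Regions of 27 oil tags in Lrp1 and 16 in Lrp2 were nevertheless listed at 3.94- and 4.20-fold. What lies behind the Lrp1b pattern was not tested.

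Lrp2, or megalin, which takes up filtered proteins in the kidney (gene 14725, chr2:69424335-69586029, minus strand), had 4 regions, the nearest 48.5 kb from its start. They were 69474471 to 69474687 (16 against 4 tags, 4.20-fold), 69483591 to 69483975 (42 against 8, 6.06-fold, limits 3.19 to 17.0), 69486157 to 69486357 (66 against 21, 3.94-fold) and 69537334 to 69537687 (85 against 27, 3.98-fold). The first had the fewest oil tags of the family, and with unscaled tamoxifen tags it alone of the 47 was no longer past the authors' limit.

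Lrp4, the agrin receptor (gene 228357, chr2:91457456-91513901), had 8 regions, all of 4.03-fold or more and all past a q limit of 1e-10. They lay between 28.7% and 79.6% of the gene's length, counted from its lower coordinate, and none was near an end. The strongest were 91502278 to 91502537 (28 against 3 tags, 8.82-fold, limits 3.78 to 62.9) and 91492535 to 91492810 (26 against 3, 8.21-fold, limits 3.48 to 58.7). The best covered, 91480168 to 91480473, had 75 against 18 tags (5.16-fold, limits 3.23 to 9.71). The regions at 91473526 and at 91488408 had the same counts, 30 against 5 tags (6.44-fold). The remaining 3, starting at 91475105, 91500402 and 91500890, had 46 against 14, 38 against 9 and 39 against 7 tags (4.03-, 4.96- and 6.31-fold). The median fold of 6.38 was above that of Lrp1 (5.05), with low oil counts in both (medians 34 and 39.5), and the 2 sets of folds overlap widely.

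Of the Wnt coreceptors, Lrp5 had 3 regions and Lrp6 1, where genes of like length had a median of 2 in each case. In Lrp5 (gene 16973, chr19:3584825-3686585), the strongest lay at the gene's lower end, 3585372 to 3585623, with 74 against 13 tags (6.87-fold, limits 4.11 to 14.7). It was one of 2 family regions near a gene end (4.26%), where 17.0% of all regions at protein-coding genes were. The 2 shares are not matched for length. Protein-coding genes had a median of 17.2 kb and the 8 members run from 37.8 to 2058 kb, and the ends make up less of a long gene. The other Lrp5 regions were 3597160 to 3597410 (44 against 18 tags, 3.06-fold) and 3657421 to 3657797 (37 against 7, 6.0-fold). Lrp6 (gene 16974, chr6:134446476-134566913) had 1 region, 134496111 to 134496354, inside the gene, with 40 against 4 tags (10.1-fold, limits 4.74 to 50.5), a fold above 98.2% of all regions. The single Lrp6 region was thus among the 3 strongest of the family, beside 2 in Lrp1.

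The reelin receptors had moderate folds. Lrp8 (gene 16975, chr4:107802200-107876840, plus strand) had 1 region in its first part, 107807203 to 107807468, with 67 against 14 tags (5.82-fold, limits 3.49 to 12.1). It lay 4.39 kb past an annotated start site, the closest of any member region to a start in the promoter table. The other 3 formed a loose group in its second part, starting at 107847386, 107849302 and 107854217, with 39 against 9, 57 against 16 and 50 against 16 tags (5.09-, 4.39- and 3.86-fold). Vldlr (gene 22359, chr19:27216480-27254231, plus strand) had 1 region, 27234722 to 27234995, with 46 against 12 tags (4.63-fold, limits 2.62 to 10.4), 18.4 kb from its start. The fold of Vldlr was the lowest among the best regions of the 8 genes, and close to the median of the list.

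**Figure D4:**
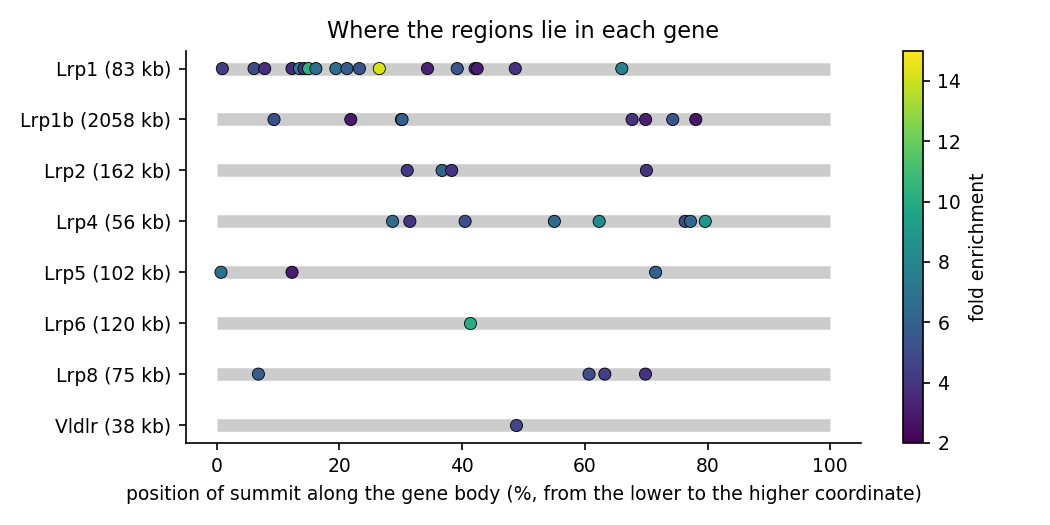
Position of each region's summit along the gene body in percent, from the lower to the higher coordinate (horizontal axis), for the 8 genes (vertical axis, with their length), coloured by fold enrichment. Lrp1 and Lrp2 are read from right to left and Lrp8 and Vldlr from left to right. The Lrp1 regions fill the left part, and the bodies of Lrp6 and Vldlr hold 1 region each.

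The wider pathway was described with 5 lists of 74 genes, of which 44 (59.5%) carried a region, beside 45.2% of all protein-coding genes. The median gene of the lists was 22.1 kb long, against 17.2 kb over all protein-coding genes, and longer genes carry regions more often. Of genes of about the length of Vldlr (37.8 kb) 59.6% had one, and of those of about the length of Lrp2 (162 kb) 82.5%. No share was computed for genes of the lists' own lengths, so the part of length in the difference was not tested. Relatives outside the 8 carried regions in 8 of 9 genes. Lrp3 had 1 of 10.9-fold (68 against 7 tags) and Sorl1 15 in 160 kb (up to 7.48-fold). Ldlrad3, whose short protein carries a few ligand-binding repeats, had 12 in a gene of 236 kb (up to 8.15-fold). Lrp11 reached 7.19-fold, Lrp12 6.05-fold, Ldlrad2 5.91-fold and Lrp10 4.0-fold, and Ldlrad1 had none. The Lrp3 region was thus as strong as all but 1 of those in the 8 genes.

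Of 22 ligands, with a median gene length of 15.4 kb, 11 carried a region (50%), beside 45.2% of all protein-coding genes. The heparan sulfate proteoglycan gene Hspg2 had 11 regions, the strongest with 33 oil tags against 2 or fewer (11.0-fold, a lower bound), and the amyloid precursor gene App had 10 (up to 8.79-fold, 48 against 6 tags). Reln, the ligand of Lrp8 and Vldlr, had 8, the strongest with 150 against 35 tags (5.45-fold, limits 3.87 to 8.37). Agrn, the ligand of Lrp4, had 3 (up to 5.38-fold, 29 against 6 tags). These counts go with unlike gene lengths, 102 kb for Hspg2, 223 kb for App, 460 kb for Reln and 32.2 kb for Agrn. The growth factor gene Mdk (5.11-fold), the thrombospondin gene Thbs2 (4.83-fold) and the Wnt antagonist gene Dkk4 (4.74-fold) had 1 each. Apoe also had 1 (4.20-fold, 32 against 9 tags), just beyond its upper end. Lower folds were found at Thbs1 (3.94) and the gelatinase gene Mmp9 (3.51, just beyond the gene). The Wnt ligand genes Wnt1 and Wnt3a, the Wnt antagonist genes Dkk1, Dkk2, Sost and Sostdc1, and A2m, Ccn2, Lpl, Plat and Plau had none.

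Of 18 partner receptors and their regulators, with a median gene length of 6.47 kb, 9 carried a region (50%). Musk, the kinase that Lrp4 activates, had 3 (up to 4.89-fold, 71 against 18 tags). Among Frizzled genes Fzd1 (7.0-fold, 22 against 3 tags), Fzd3 (6.14-fold, 66 against 13) and Fzd6 (2.60-fold, 73 against 36) did, and the other 7 did not. Znrf3, whose protein removes Frizzled and Lrp6 from the cell surface, had 4 (up to 9.36-fold, 28 tags against 2 or fewer, a lower bound). Its relative Rnf43 had 1 of 6.05-fold. Ror2 reached 8.07-fold (24 tags against 2 or fewer, again a lower bound). Kremen1, a receptor for Dkk proteins, reached 4.20-fold just beyond the gene and Cubn, the partner of Lrp2 in uptake, 3.44-fold. Amn and Kremen2 had none. In the agrin pathway, Agrn, Lrp4 and Musk carried regions, while Dok7 and Rapsn, which act after Musk, had none. Of all protein-coding genes 45.2% carried a region, and Lrp4 was chosen with this list known. So few genes were therefore not read as a pattern of the pathway.

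Of 20 adaptors and effectors, 14 carried a region (70%), beside 45.2% of all protein-coding genes. Their median length was 27.4 kb, against 17.2 kb over all protein-coding genes, and the part of length was not tested. Dab1, the adaptor of the reelin receptors, had 4 regions in 1125 kb (up to 9.73-fold, 31 against 3 tags, limits 4.23 to 69.3). The scaffold gene Dlg4 had 4 (up to 9.77-fold, 46 against 5 tags). Snx17, which returns Lrp1 to the cell surface, had 2, the stronger just beyond the gene (9.73-fold, 31 against 3 tags). Dvl2 had 3 (up to 9.68-fold, 29 tags against 2 or fewer, a lower bound). The kinase genes Gsk3b (5 regions, up to 7.25-fold), Src (2, up to 6.42-fold) and Fyn (6, up to 4.84-fold) had lower highest folds. A gene with more regions has more chances of a high one. Dvl3 (3.94), Dab2 (3.54), Dvl1 (3.43), Gulp1 (3.33) and Mapk8ip2 (2.92) had lower folds, and Apbb1, Axin1, Mapk8ip1, Shc1, Dok7 and Rapsn no region. Of 5 genes of folding and turnover, Srebf2, the regulator of sterol synthesis, had 8 regions in 58.1 kb (up to 6.25-fold, 72 against 14 tags). That is as many as Lrp4 had in 56.4 kb. The ubiquitin ligase gene Mylip had 1 (4.29-fold), while Lrpap1 and Mesd had none.

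**Figure D5:**
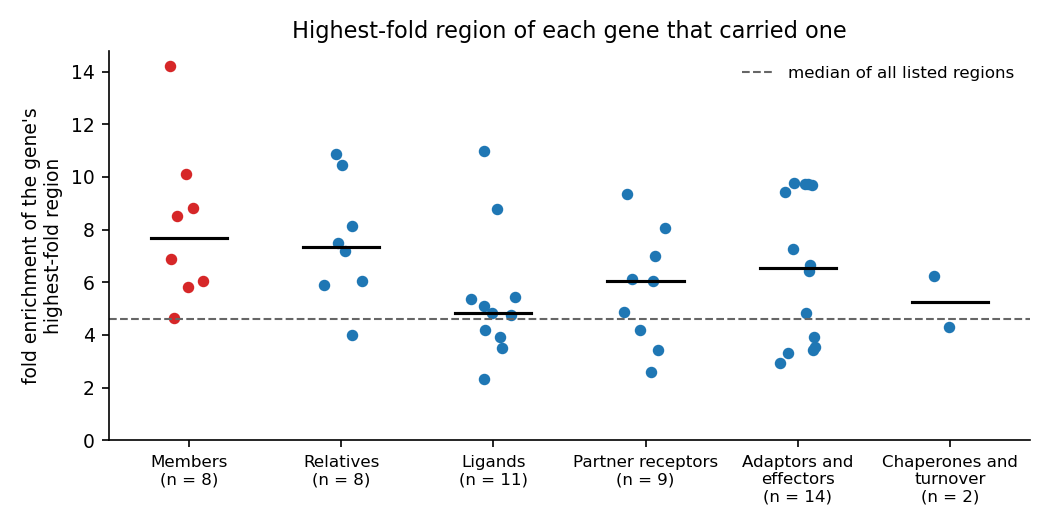
Fold enrichment of the highest-fold region (vertical axis) of each gene that carried a region, for the 8 members and the 5 pathway lists, with a black bar at each median and a dashed line at 4.61, the median of all listed regions. A gene with more regions has more chances of a high one. The members run from 4.63 to 14.2.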

How the data were processed

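Methylated and non-methylated DNA was separated with an MBD2-based kit and libraries of 250 to 350 bp fragments were sequenced, per the labels' protocols. The submitters' processing notes list Trim Galore and HISAT2 and the build mm10. MACS settings are per the file headers: the authors ran MACS 2.2.6 with oil as treatment and tamoxifen as control, kept at most 1 tag per position, extended tags of 130 bp to 201 bp, scaled tamoxifen to oil, used no regional background and set a q limit of 1e-04. The deposited pileup is a signal, the oil tags over a summit. The deposited fold enrichment is a ratio of both values plus 1. The deposited -log10 p and q columns had lost their headings and were read from their place and the limit. Folds and p and q values are the authors', and compare 2 libraries.

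Tamoxifen tags were computed from pileup and fold with the library factor of 0.763. They came out whole, within 0.02, in 97.5% of regions, and elsewhere were 2 or fewer. Recomputed -log10 p differed by at most 0.00017. Limits are exact (Clopper-Pearson) 95% limits of the scaled ratio of tags and cover counting error only. Because summits are where oil was highest, folds are biased upward. Genes were those of RefSeq GRCm38.p6, and any overlap of 1 bp counted. All 8 members, every Lrp1 region, genes within 50 kb of Lrp1 and up to 30 pathway genes by fold were to be named, and lower pathway genes were added afterwards. Members and lists were chosen with earlier results of these data known. Scripts ran in Python 3.11.15 with scipy 1.17.1 and were tested on simulated data. Alternatives were other q, fold and distance limits, joined regions, midpoints, plain ratios and unscaled tags. Counts over the pathway lists include a few genes that are not reported here.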

Additional observations from a re-analysis of the deposited data

How the results depend on the processing

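The total of 47 family regions stayed between 32 (folds of 4 or more) and 49 (gene bodies extended by 5000 bp) under all 8 alternatives, with 38 at a q limit of 1e-10, 41 with close regions joined and 46 with unscaled tamoxifen tags, an alternative added after the data were seen. The extension by 5000 bp added 1 region each to Lrp1 and Lrp6. The density of Lrp1 fell from 20.7 to 12.6 regions per 100 kb when only folds of 4 or more were kept, because 11 of its 18 regions remain. It was 14.9 both at a q limit of 1e-10 and with close regions joined. The median fold of 5.16 became 4 with unscaled tags, which lowers every fold, and 5.63 as a plain ratio of tags. The 44 pathway genes ranged from 33 to 44. With unscaled tags the best fold of each member fell, at Lrp1 from 14.2 to 11.7, at Lrp6 from 10.1 to 8.2 and at Vldlr from 4.63 to 3.62. This shift follows from the library factor, and the counting limits cover counting error only. They are also wide beside it, so they cannot test the scaling. As a plain ratio of tags the best folds rose, at Lrp1 to 20.5. The counting limits are those of this same ratio, so they cannot test it. No paired analysis was possible because each group has 1 library and the list gives no value per replicate. Depth limits what is listed: tamoxifen counts of 2 or fewer give lower bounds, and thinly covered sites are absent.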
